A study of Homo sapiens with 26 samples.

Results

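Ribosome footprints on 10 genes for erythroid and haematopoietic transcription factors are described here: GATA1, GATA2, TAL1, LMO2, LYL1, KLF1, NFE2, GFI1B, ZFPM1 and MYB. They were taken by gene name, and all 10 were found, with 1 transcript each among the 19478 coding sequences counted in every library. The study asked whether the method used to remove ribosomal RNA fragments biases ribosome profiling, an assay that sequences the stretches of mRNA that ribosomes shield from nuclease. It holds 26 libraries of 3 human cell lines, in 4 separate count tables.

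No line carries an engineered genotype or drug treatment in the labels, and all lysates contained cycloheximide, which stalls elongating ribosomes. K562 is a leukaemia line of erythroid character, HEK293T derives from embryonic kidney cells, and HEK293FT is another HEK293-derived line. Of the K562 libraries, 12 compared depletion kits on fragments of 20 to 34 nt: 2 undepleted, 2 with FastSelect, 2 with riboPools, 2 with riboPools and cold elution, and 1 each with Ribo-Zero Plus alone, with oligos, with formaldehyde and with both. The other 4 K562 libraries crossed NEBNext depletion with fragments of 20 to 34 or 20 to 60 nt. HEK293T gave 8 libraries of 15 to 35 nt, 2 each undepleted and depleted with legacy Ribo-Zero Gold, RiboCop or NEBNext. HEK293FT gave 2 libraries of 15 to 35 nt, 1 undepleted and 1 depleted with custom oligos. Both size-selection libraries titled undepleted also carry a label naming NEBNext, and the title was followed. Nothing states that replicate libraries came from separate cultures, so p-values measure only the spread between these libraries, which may be technical. Each cell line sits in its own tables, so line, experiment and fragment size cannot be told apart.

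GATA1 is the zinc-finger factor that drives red cell and megakaryocyte genes, and its relative GATA2 acts earlier, in stem and progenitor cells. ZFPM1 (FOG1) is a GATA1 cofactor that does not itself need to bind DNA. TAL1 and LYL1 are related basic helix-loop-helix proteins that join GATA factors through the bridging protein LMO2 and its partner LDB1. KLF1 binds CACCC boxes of globin genes, NFE2 is the large subunit of a basic leucine zipper factor of the globin control regions, GFI1B is a repressor of erythroid and megakaryocyte cells, and MYB maintains progenitors. A footprint count depends on both the amount of an mRNA and the ribosomes on it, and fewer expressing cells and fewer footprints per cell cannot be told apart.

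Since GATA boxes are the sites read by 2 of these factors, the promoters that hold one next to the start are shown first. RefSeq promoter entries on GRCh38.p14, from 250 bases before to 50 after an annotated start, were matched by symbol for 8 of the 10 genes, in 11 entries, with LMO2 and NFE2 missing. A GATA box was searched as AGATAA or AGATAG or as TGATAA or TGATAG on both strands of the 250 bases before the start. The 50 bases after it were not searched. It was present in 4 genes (KLF1, TAL1, LYL1 and GFI1B) and in 4 of the 11 entries, against 22.3% of 35116 promoter entries of the same length. In the windows below, which hold the 100 bases before the start in the direction of the gene, capitals mark a GATA box read on the opposite strand.
KLF1, chr19:12887202-12887301, minus strand: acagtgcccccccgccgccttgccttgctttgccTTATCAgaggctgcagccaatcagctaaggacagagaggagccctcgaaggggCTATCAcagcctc
LYL1, chr19:13102859-13102958, minus strand: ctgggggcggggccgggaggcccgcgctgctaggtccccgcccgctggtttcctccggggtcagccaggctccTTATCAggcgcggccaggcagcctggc
TAL1, chr1:47232336-47232435, minus strand: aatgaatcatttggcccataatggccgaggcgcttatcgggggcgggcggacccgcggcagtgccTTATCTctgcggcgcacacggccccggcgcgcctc
The KLF1 boxes began 66 and 13 bases before the start, the LYL1 box 27 and the TAL1 box 35. The GFI1B box lay 116 bases before the start of 1 of its 2 entries, outside such a window. These are matches of letters, and no binding was measured. Entries were matched by symbol and not by transcript. The GFI1B entry with the box, from chr9:132978444, lies inside the counted transcript, which starts at 132945551. The TAL1 window lies before the counted transcript, which starts at 47229771 on the minus strand. The other GFI1B entry and the other TAL1 entry held no GATA box. At least 2 boxes, as in KLF1, were present in 4.96% of all entries. The GATA1, GATA2, MYB and ZFPM1 entries held none of these 4 words in the 250 bases searched.

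Relatives among these genes could in principle trade footprints where their coding sequences are identical, so the longest identical runs are shown in capitals with 12 flanking bases, from the GENCODE 29 transcripts.
GATA1, coding bases 694 to 714 in capitals: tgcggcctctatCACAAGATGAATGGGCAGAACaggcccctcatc
GATA2, coding bases 967 to 987 in capitals: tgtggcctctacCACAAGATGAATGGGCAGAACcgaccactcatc
TAL1, coding bases 571 to 590 in capitals: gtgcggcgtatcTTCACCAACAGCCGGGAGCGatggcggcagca
LYL1, coding bases 460 to 479 in capitals: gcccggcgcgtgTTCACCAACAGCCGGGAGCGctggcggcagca
The GATA pair shared at most 21 bases in a row and TAL1 and LYL1 at most 20. Stretches of these coding sequences were searched in all GENCODE 29 transcripts of other genes, non-coding ones and untranslated parts included. Of stretches of 28 bases, 1.35% in GFI1B (shared with GFI1 or ZNF70), 0.918% in GATA2 (with GATA5 or GATA6) and 0.188% in KLF1 (with KLF2) were also present there. The other 7 genes had none at that length. The libraries also hold fragments down to 15 or 20 nt, and of stretches of 20 bases 3.59% in GFI1B, 2.43% in KLF1, 2.04% in GATA1 and 2.04% in GATA2 were shared. At that length LMO2 had none, and the remaining 5 genes had at most 0.819%.

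Library totals ran from 116742 to 5795774 counts in the K562 kit libraries, from 46858 to 441249 in the K562 size libraries, from 120019 to 421521 in HEK293T and were 900763 and 5747772 in HEK293FT. A floor of 3 counts therefore stood at 25.0 counts-per-million (CPM) in the shallowest HEK293T library, and in K562 at 64.0 in the shallowest library, undepleted of 20 to 60 nt, and 0.518 in the deepest. The labels were checked against marker genes. An erythroid and K562 list of 10 genes summed to between 6424 and 15578 CPM in K562, with every gene detected, and to at most 492 in the HEK libraries, where genes such as HBE1, HBG1, HBG2 and ALAS2 were at 0 in both lines. A list of 8 kidney and neural genes summed to 428 to 821 CPM in HEK293T, 383 to 387 in HEK293FT and 6.05 to 43.3 in K562, where PAX2, EYA1 and NEFM were at 0. Markers of other blood cells were also present in K562. All 5 T and B cell markers were detected in K562 and summed to 103 to 214 CPM there and at most 2.85 in HEK. All 4 myeloid markers were detected and summed to 20.4 to 85.4 CPM in K562, with 0 in HEK. Of the 4 megakaryocyte markers PF4 and GP9 were at 0, and the sum was 0 to 24.2 CPM in K562 and at most 5.55 in HEK. Their part in the differences between lines was not tested.

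**Figure D1:**
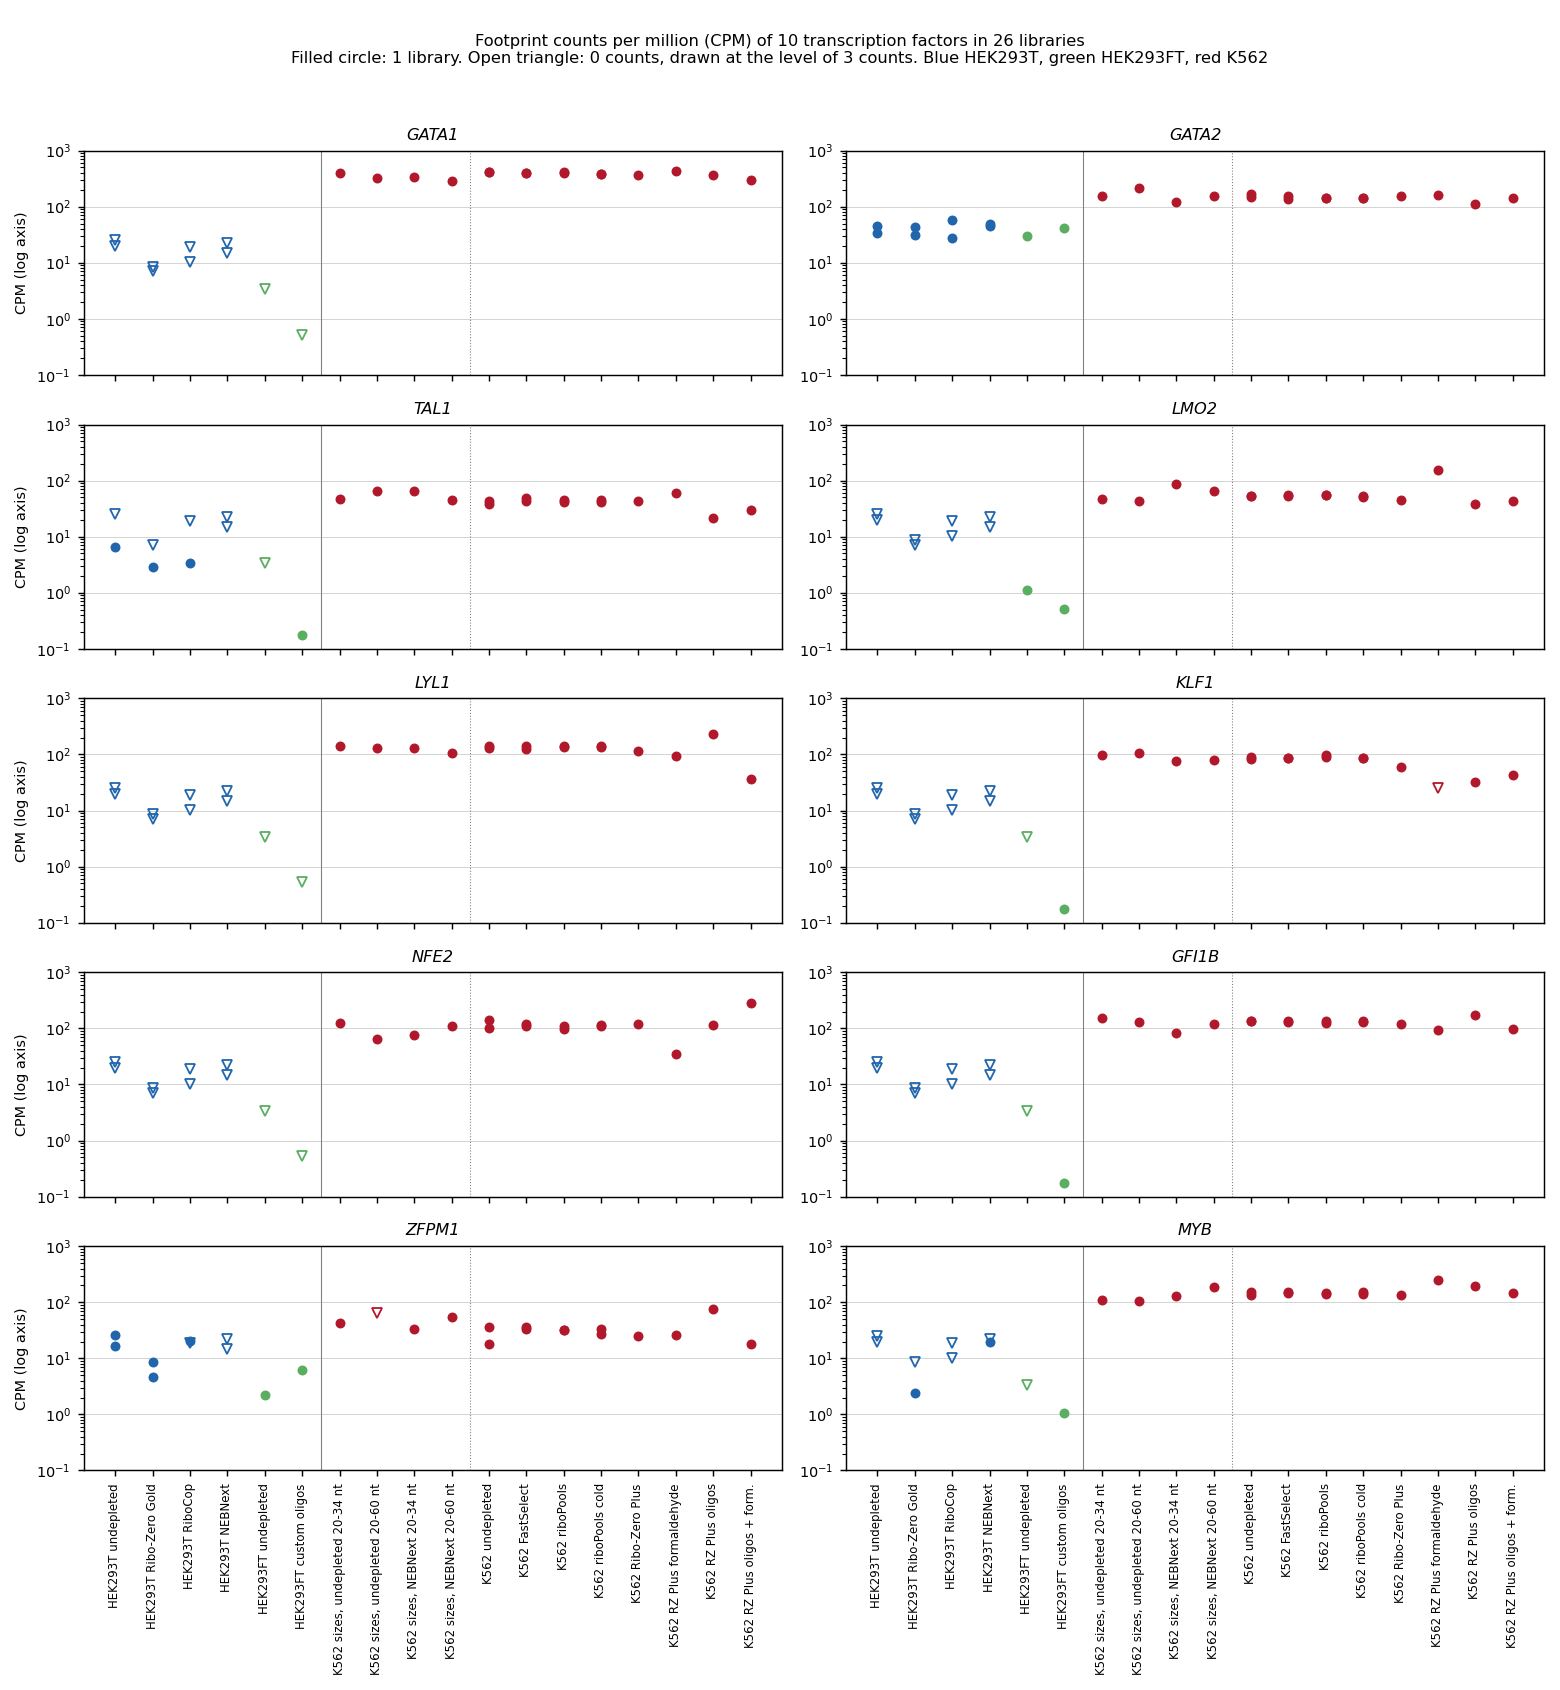
Footprint level of each of the 10 genes in the 26 libraries, in CPM on a log axis, with 1 panel per gene, filled circles for single libraries and open triangles for libraries with 0 counts, drawn at the level of 3 counts. GATA1 lies between 290 and 437 CPM in all 16 K562 libraries and at 0 in all 10 HEK libraries, while GATA2 is present in both and ZFPM1 overlaps between them.

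The 10 genes together took 1144 to 1364 CPM of a K562 library, with a median of 1283 over 16 libraries, and 33.3 to 78.2 CPM of a HEK library. Every K562 library lay above every HEK library for 8 of the 10 genes. Of all genes averaging 10 counts or more per library, 5.04% were separated in that way. KLF1 overlapped through 1 K562 library, Ribo-Zero Plus with formaldehyde, where it had 0 counts, and ZFPM1 through 5 K562 libraries. Without the 3 Ribo-Zero Plus libraries that had additions, 9 of the 10 genes were separated, against 8.48% of all genes. These comparisons rest on low counts in HEK293T, where all 10 genes together drew 6 and 12 counts in the undepleted libraries.

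With edgeR's quasi-likelihood test on the 5 undepleted libraries, 9 of the 10 genes were higher in K562 than in HEK293T at an adjusted p under 0.05, against 18.9% of the 9644 genes tested. Against HEK293FT all 10 were higher, where 26% of genes were. Both contrasts share the same 2 K562 libraries. The median log2 fold change of the 10 genes was 9.15 against HEK293T, beside 0.04 over all genes tested. For the 7 genes with no count in undepleted HEK293T that median rests on fitted values that depend on the prior count and are no bound on the size of the difference. These 7, and TAL1 with 1 count, passed the filter on low counts through K562 and so had to differ. In undepleted HEK293FT, GATA1, TAL1, LYL1, KLF1, NFE2, GFI1B and MYB had 0 counts and LMO2 had 1, with the same limit. It also applies to the p-values given below for these genes, and to listed genes at 0 counts in either line. The lone HEK293FT library was assumed to vary like the others.

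GATA1 (transcript ENST00000376670.7, chrX:48786554-48794308 on GRCh38) was the gene of this group with the most footprints. It had 464 and 422 counts in the undepleted K562 libraries, equal to 409 CPM in each. All 8 HEK293T and both HEK293FT libraries had 0. The exact 95% upper limit was 2.02 CPM over the pooled HEK293T libraries and 0.555 over the HEK293FT libraries. The undepleted K562 level was at least 37.3-fold higher than in undepleted HEK293T and at least 123-fold higher than in undepleted HEK293FT, taking 3 counts over the group as the floor. The edgeR adjusted p was 1.38e-50 against HEK293T.

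GATA2 (ENST00000341105.6, chr3:128479427-128493185) differed from the rest in being present in every HEK library. Its level was 149 and 165 CPM in undepleted K562, 33.3 and 45.6 in undepleted HEK293T and 30.0 in undepleted HEK293FT. Over all depletion methods it ranged from 114 through a median of 147 to 213 CPM in 16 K562 libraries, and from 27.5 through 43.9 to 57.6 in 8 HEK293T libraries. The ranges did not overlap. The pooled undepleted ratio of K562 to HEK293T was 3.89, with a 95% interval of 2.15 to 7.86 for counting error only. edgeR gave a log2 fold change of 2.22 ± 0.35 (SE) against HEK293T, adjusted p = 2.75e-09, and of 2.49 ± 0.23 against HEK293FT, adjusted p = 6.57e-25. The SE of edgeR values was derived from the fold change and the quasi-likelihood F, and can understate counting error at low counts. In HEK293T, GATA2 made up a median of 72.4% of the counts of the 10 genes, and in K562 a median of 11.4%.

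ZFPM1 (ENST00000319555.7, chr16:88453317-88537016), the cofactor of GATA1, was the gene whose libraries overlapped most between K562 and HEK. This gene was at or under the floor of 3 counts in 3 of 16 K562 and 6 of 8 HEK293T libraries. The overlap therefore cannot be told apart from low depth. Its level was 36.1 and 18.4 CPM in undepleted K562, from 41 and 19 counts, and 16.7 and 26.1 CPM in undepleted HEK293T, from 2 and 4 counts. These ranges overlapped, and the pooled ratio was 1.26 with a counting interval of 0.547 to 3.57. The edgeR log2 fold change was 0.60 ± 0.61 with an adjusted p of 0.473. The deeper undepleted HEK293FT library had 2 counts, 2.22 CPM, and there edgeR gave K562 a log2 fold change of 3.64 ± 0.69, adjusted p = 6.34e-07. HEK293FT against HEK293T did not pass for ZFPM1 (log2 fold change -3.04 ± 1.08, edgeR adjusted p = 0.0893), nor for any of the 10 genes, and 4.21% of all genes tested were called in that contrast, in either direction. At an unadjusted p under 0.05, 1 of the 10 genes, ZFPM1, passed it. The 2.22 CPM of undepleted HEK293FT lies under its floor of 3.33 CPM, which limits the comparisons with it. With custom oligos HEK293FT had 36 counts, and undepleted K562 stood 4.42-fold higher (counting interval 2.88 to 6.88). The 4 Ribo-Zero Gold and RiboCop libraries of HEK293T held ZFPM1 at 8.54, 4.74, 0 and 20.7 CPM, and both NEBNext libraries at 0. Pooled over all depletion methods, ZFPM1 was 31.7 CPM in K562 (counting interval 29.6 to 33.9). The pooled level was 9.30 in HEK293T (5.42 to 14.9) and 5.72 in HEK293FT (4.04 to 7.85).

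TAL1 (ENST00000294339.3, chr1:47216292-47229771) was low in K562 and had almost no footprints in HEK. It had 44 counts in each undepleted K562 library, 38.8 and 42.6 CPM. HEK293T had 1 count in each of 3 libraries and 0 in the other 5, and HEK293FT had 0 and 1. The undepleted ratio of K562 to HEK293T was 11.1, with a counting interval of 1.94 to 444. edgeR gave a log2 fold change of 3.67 ± 0.89 and an adjusted p of 0.000256.

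LYL1 (ENST00000264824.4, chr19:13099033-13102867), the close relative of TAL1, had 148 counts in each undepleted K562 library, 130 and 143 CPM, and 0 in all 10 HEK libraries. This was at least 12.5-fold over undepleted HEK293T (edgeR adjusted p = 9.03e-18). Per kilobase of coding sequence LYL1 stood above TAL1 in all 8 K562 kit libraries without Ribo-Zero Plus, by a ratio of 2.99 to 4.08. LMO2 (ENST00000395833.7, chr11:33858576-33869816), the bridge between these proteins and GATA factors, had 59 and 55 counts in undepleted K562, 52.0 and 53.3 CPM. It had 0 in all 8 HEK293T libraries, and 1 and 3 counts in HEK293FT. The difference was at least 4.79-fold against undepleted HEK293T (edgeR adjusted p = 3.18e-07).

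KLF1 (ENST00000264834.4, at chr19:12884422-12887199 in GENCODE 29, which lists a later version of this transcript) had 101 and 84 counts in undepleted K562, 89.0 and 81.4 CPM. The HEK libraries held a single count, in HEK293FT with custom oligos. The undepleted difference from HEK293T was at least 7.78-fold, edgeR adjusted p = 2.06e-11. NFE2 (ENST00000540264.2, chr12:54292173-54295758) had 139 and 103 CPM in undepleted K562, the widest ratio between that pair of libraries after ZFPM1, and 0 in all 10 HEK libraries. It was at least 11.1-fold higher, edgeR adjusted p = 5.70e-16. GFI1B (ENST00000339463.7, chr9:132945551-132991687) had 136 and 135 CPM in undepleted K562 and a single count over the 10 HEK libraries. It was at least 12.3-fold higher, edgeR adjusted p = 1.34e-17.

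MYB (ENST00000367814.8, chr6:135181328-135219173) had 136 and 153 CPM in undepleted K562 and 0 in undepleted HEK293T, at least a 13.1-fold difference (edgeR adjusted p = 1.16e-18). Unlike GATA1, LYL1 and NFE2 it was seen at a few counts in both HEK lines. HEK293T had 1 count in a Ribo-Zero Gold library and 4 in a NEBNext library (19.9 CPM), and HEK293FT had 0 and 6. Its lowest K562 level was 107 CPM and its highest HEK level was that of the NEBNext library.

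The comparison of lines was repeated in NEBNext libraries, 2 of K562 and 2 of HEK293T, none of which entered the undepleted test. The 2 K562 libraries differed in fragment size and stood in for replicates, and the fit had no term for size. The SE and p-values of this comparison therefore rest on a spread that includes any effect of fragment size. TAL1 and ZFPM1 fell under the filter on low counts. The other 8 genes were all higher in K562 (edgeR, adjusted p under 0.05), against 21.9% of genes tested. Of these 8, GATA1, LMO2, LYL1, KLF1, NFE2 and GFI1B had 0 counts in both HEK293T NEBNext libraries and MYB had 0 and 4, so these 7 passed the filter through K562 and had to differ. GATA2 was present in both lines. It gave a log2 fold change of 1.62 ± 0.36, adjusted p = 0.00245, and MYB 3.75 ± 0.57, adjusted p = 0.000105. Without the K562 library of 20 to 34 nt, 1 K562 library was left, and calls were lost over all genes as well as for these. The median log2 fold change of the 7 genes then tested was 7.34, beside -0.09 over all genes. DESeq2 on all 4 libraries called the 8 genes higher, where 526 of the 4236 genes tested were.

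In the HEK293FT pair, which has 1 library per condition and so no test, GATA2 was 41.4 CPM with custom oligos and 30.0 without, a ratio of 1.38 (counting interval 0.926 to 2.14). ZFPM1 was 6.26 and 2.22 CPM, a ratio of 2.82 (0.726 to 24.2). Both intervals include no difference. The deep custom oligo library had 0 counts for GATA1, LYL1 and NFE2, at a floor of 0.522 CPM.

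**Figure D2:**
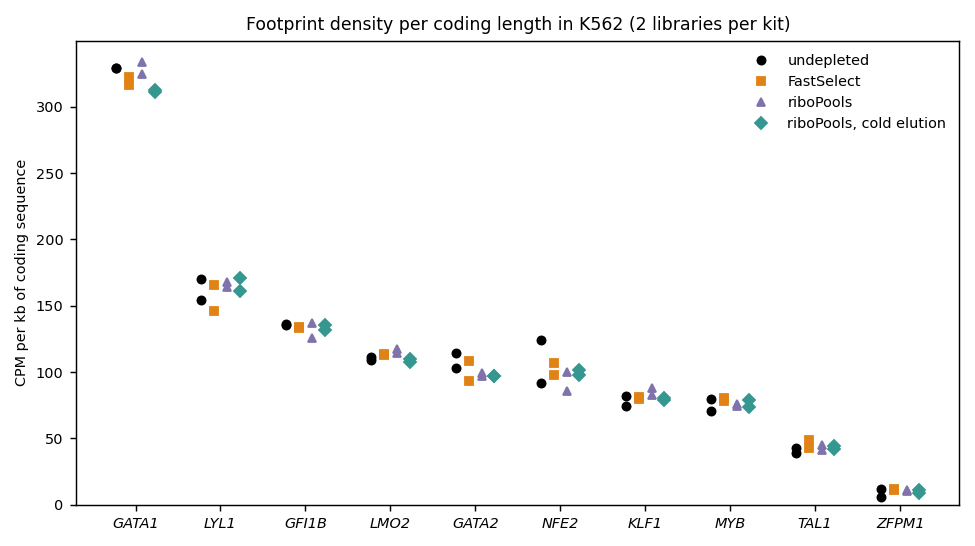
Footprint density of the 10 genes, in CPM per kilobase of coding sequence, in the 8 K562 kit libraries without Ribo-Zero Plus, with 2 libraries for each of 4 treatments marked by colour and shape. GATA1 stands apart at the top at 311 to 333, LMO2, GATA2 and NFE2 overlap between 85.6 and 124, and ZFPM1 is lowest, with a median of 11.0.

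Levels were compared between genes only per length, as CPM per kilobase of coding sequence in undepleted K562 (mean ± SD, n = 2). GATA1 led with 329 ± 0.179. LYL1 followed with 162 ± 11.0 and GFI1B with 136 ± 0.658. The steps from GATA1 to LYL1 and from LYL1 to GFI1B held in each of the 8 kit libraries without Ribo-Zero Plus. LMO2 at 110 ± 1.98, GATA2 at 109 ± 7.80 and NFE2 at 108 ± 23.0 could not be put in order, since their libraries overlapped. KLF1 at 78.2 ± 4.90 and MYB at 75.1 ± 6.43 overlapped likewise. TAL1 at 40.9 ± 2.76 and ZFPM1 at 9.02 ± 4.14 came last, without overlap between them or with MYB. NFE2 and KLF1 were apart in the undepleted pair but overlapped over the 8 libraries. The GATA1 to GATA2 ratio per kilobase was 2.88 to 3.47 in those 8 libraries and 1.74 to 3.76 over all 16. Its lowest value came from the undepleted library of 20 to 60 nt, from 15 GATA1 and 10 GATA2 counts.

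**Figure D3:**
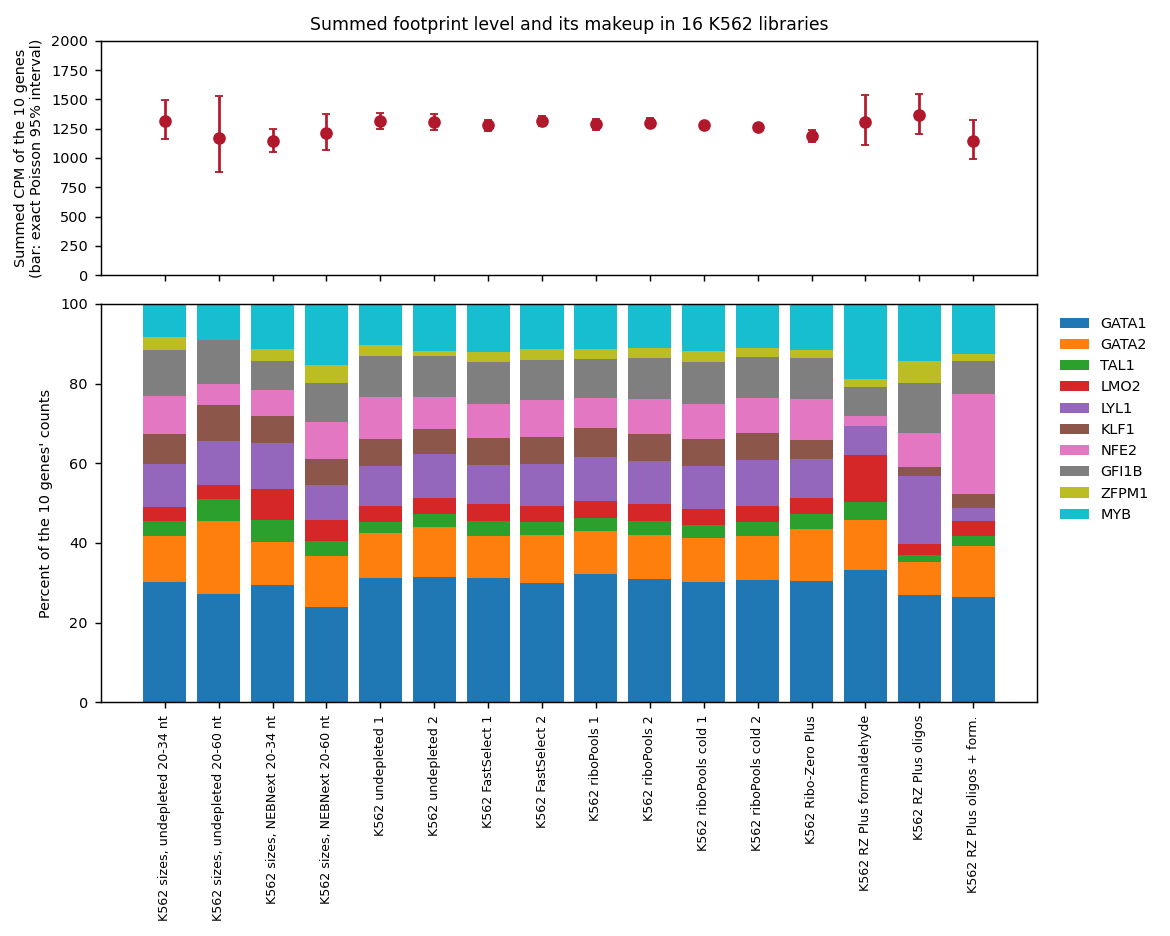
Summed level of the 10 genes (upper panel, CPM with exact Poisson 95% intervals) and the percent of that sum from each gene (lower panel) in the 16 K562 libraries. The sum stays between 1144 and 1364 CPM, and the share of GATA1 between 24.0% and 33.3%, while shares of LYL1, NFE2 and LMO2 swing in the 3 Ribo-Zero Plus libraries with additions.

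In the 8 K562 kit libraries without Ribo-Zero Plus, the 10 genes summed to 1264 to 1314 CPM and GATA1 made up 30.0% to 32.2% of the sum. The plain Ribo-Zero Plus library lay below that sum, at 1184 CPM, with GATA1 at 30.4% of it and KLF1 at 4.96%. Over the 8 libraries the observed variation was smallest for GATA1, GFI1B and LMO2. LMO2, though low, lay at 51.1 to 55.9 CPM, a coefficient of variation of 2.87%. GATA1 had 2.56% and GFI1B 2.78%. The counting interval of LMO2 in the first undepleted library, 39.6 to 67.0 CPM, was wider than that range. Such small variation is therefore within counting error and gives no order of steadiness. ZFPM1 varied most there, by 18.6%, between 18.4 CPM and 36.1 CPM, the 2 undepleted libraries themselves.

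None of the 10 genes changed with FastSelect, with riboPools or with riboPools and cold elution (edgeR, 0 of 10 called in each, 0 of 10 at an unadjusted p under 0.05, and 0 by DESeq2, which with cold elution gave no adjusted p for TAL1, LMO2, KLF1 and ZFPM1). Few genes of any kind were called there, 0.0205%, 0.082% and 0.225% of the 9761 tested. The 3 contrasts share the 2 undepleted libraries. The log2 fold changes ran from -0.22 (NFE2, riboPools, SE 0.11) to 0.33 (ZFPM1, FastSelect, SE 0.22). For GATA1 the values were -0.05 ± 0.06 with FastSelect, 0.00 ± 0.06 with riboPools and -0.08 ± 0.05 with cold elution. The lowest edgeR adjusted p among the 30 values was 0.784, for GATA2 with cold elution.

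NEBNext in K562 was compared within the size libraries, with fragment size as a term and 1 residual degree of freedom. ZFPM1 fell under the filter and none of the other 9 passed with edgeR, where 2.85% of genes were called. By unadjusted p, 0 of 9 were under 0.05 with edgeR and 0 with DESeq2, which gave an adjusted p for GATA1 alone. The widest values were 0.89 ± 0.53 for LMO2 (edgeR adjusted p = 0.462) and -0.60 ± 0.36 for GFI1B (edgeR adjusted p = 0.470). LMO2 was at 88.4 and 65.1 CPM with NEBNext and at 47.3 and 42.7 without, the last from 2 counts. GFI1B was at 81.6 and 120 CPM with NEBNext and at 152 and 128 without. KLF1 was at 77.1 and 80.1 CPM with NEBNext and at 99.9 and 106.7 without, and MYB at 131 and 185 with and at 110 and 106.7 without. These 4 of the 9 genes that averaged 10 counts or more did not overlap between the pairs of libraries, where 43.2% of all such genes did not, and none of the 4 passed the test.

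In HEK293T none of the 10 genes passed the filter on low counts, so the kits could not be tested on them with it. With no filter 4 genes (GATA2, TAL1, ZFPM1 and MYB) entered and edgeR called 0 of them for NEBNext, Ribo-Zero Gold or RiboCop, with 1 at an unadjusted p under 0.05, for NEBNext. Unfiltered DESeq2 was not run. GATA2, the one with more than 6 counts in any library, was 33.3 and 45.6 CPM undepleted, 31.3 and 42.7 with Ribo-Zero Gold, 57.6 and 27.5 with RiboCop, and 45.0 and 49.7 with NEBNext. Each depleted pair overlapped with the undepleted pair.

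**Figure D4:**
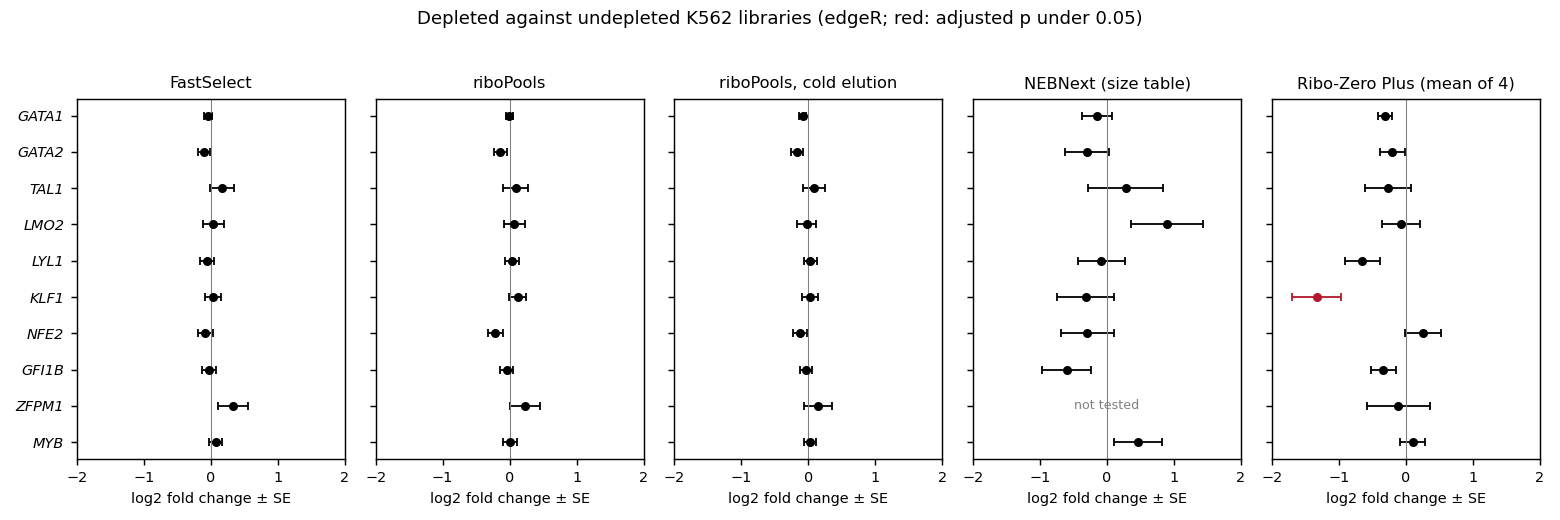
Log2 fold change (points) and standard error (bars) of each gene for depleted against undepleted K562 libraries, in 5 panels by kit. Bars are derived from the quasi-likelihood F, and red marks an edgeR adjusted p under 0.05. Points for FastSelect and both riboPools panels lie between -0.22 and 0.33, and the single red point is KLF1 at -1.33 with Ribo-Zero Plus.

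Ribo-Zero Plus was the kit with a call among the 10 genes. Over the mean of its 4 libraries KLF1 was lower than without depletion (log2 fold change -1.33 ± 0.36, edgeR adjusted p = 0.0282), 1 of 10 genes, where 13.4% of all genes were called lower. KLF1 had 108 counts in the plain library (58.7 CPM), 6 with oligos (32.5 CPM), 0 with formaldehyde and 7 with both (42.4 CPM). The 8 libraries of the other kits and undepleted samples held 81.4 to 96.0 CPM, above all 4. The 3 libraries with additions totalled 116742 to 184722 counts, against 1840190 for plain Ribo-Zero Plus, and the floor of 3 counts in the formaldehyde library is 25.7 CPM. Over all genes this contrast had a median log2 fold change of -0.43, and over the 10 genes -0.23. In a fit with the plain library alone, beside the 8 others, edgeR gave KLF1 -0.52 ± 0.17, adjusted p = 0.0213, with a median of -0.01 over all genes and 11.7% of them called lower. That lone library was assumed to vary like the other groups. The call was lost in a fit of the Ribo-Zero Plus and undepleted libraries only (-1.38 ± 0.80, edgeR adjusted p = 0.585), where 0 of all 7322 genes tested were called. It was also lost without either undepleted library, in fits that kept 1 undepleted library and where calls over all genes fell too.

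Single genes stood out in single Ribo-Zero Plus libraries with additions. LMO2 was at 154 CPM with formaldehyde, from 18 counts, where no other K562 library passed 88.4. LYL1 was at 233 CPM with oligos, from 43 counts, and at 36.3 with oligos and formaldehyde, from 6. NFE2 was at 285 CPM with oligos and formaldehyde, from 47 counts, and at 34.3 with formaldehyde, from 4. MYB reached 248 CPM with formaldehyde, from 29 counts. In the other 13 K562 libraries LYL1 ranged from 105 to 144 CPM and NFE2 from 64.0 to 139, a narrower range for both. GATA1, at 303 to 437 CPM, and GATA2, at 114 to 163 CPM, moved least over these 3 libraries. Each of them is a single library, so no spread can be given. The edgeR values for GATA1 (-0.31 ± 0.10, adjusted p = 0.0537) and LYL1 (-0.65 ± 0.26, adjusted p = 0.0914) did not pass. Without the library with oligos, or without that with formaldehyde, both passed, at -0.37 for GATA1 and -1.13 for LYL1 (edgeR adjusted p at most 0.00809). In these 2 fits 2183 of 9710 and 2207 of 9741 genes tested were called lower, with medians over all genes of -0.43 and -0.44. GATA1 was lower by less than the median gene in both, and LYL1 by more.

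Of 23 listed paralogs of the 10 genes, 15 passed the filter, and edgeR called 2 higher and 6 lower in undepleted K562 than in HEK293T, with a median log2 fold change of -0.43. Of all genes tested, 18.9% were called higher and 16.7% lower in that contrast, with a median of 0.04. GATA6, a GATA factor of endoderm and heart, had 116 ± 11.0 CPM in undepleted HEK293T (n = 2), 48.8 in undepleted HEK293FT and 0 in undepleted K562 (edgeR adjusted p = 5.63e-26). GATA3 and GATA4, named after their values were seen, went the same way, with 39.5 ± 8.69 and 21.4 ± 6.65 CPM in HEK293T (n = 2). In K562 GATA3 had 1 count and GATA4 0 in the undepleted pair. NFE2L2, the stress-response relative of NFE2, was 88.0 ± 5.15 CPM in K562 and 55.2 in HEK293T (log2 fold change 0.95 ± 0.36, edgeR adjusted p = 0.0252). NFE2L1, MYBL2 and KLF16 did not pass, with log2 fold changes of 0.59, -0.59 and 0.82.

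Of 32 listed partner proteins and co-regulators, 29 were tested, and edgeR called 12 higher and 4 lower in K562 than in HEK293T, with a median of 0.76, beside the same 18.9% and 16.7% of all genes. Among the 4 most abundant, the repressor complex deacetylase HDAC1 was higher in K562 (log2 fold change 0.76 ± 0.18, edgeR adjusted p = 0.000105) and its relative HDAC2 lower (-0.76 ± 0.14, edgeR adjusted p = 5.16e-07). The remodelling ATPases CHD4 and SMARCA4 did not pass, at 0.25 ± 0.14 and -0.04 ± 0.16. The following 4 genes were named after their values were seen. LDB1, which binds LMO2, was 108 ± 3.77 CPM in undepleted K562 and 30.2 ± 31.0 in undepleted HEK293T (n = 2 each, log2 fold change 1.98 ± 0.40, edgeR adjusted p = 5.55e-06). CBFA2T3 (ETO2), a corepressor of the TAL1 complex, had 160 ± 21.1 CPM in K562 and 0 in undepleted HEK293T and HEK293FT, and RUNX1 had 81.5 ± 8.12 CPM and 0. BCL11A, a repressor of fetal globin genes, was 0 in undepleted K562 and 32.0 ± 9.97 CPM in undepleted HEK293T (edgeR adjusted p = 1.09e-06).

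Of 19 listed transcription factors of other blood lineages, 11 were tested and edgeR called 2 higher and 3 lower in K562, with a median of 0.42, beside 18.9% higher and 16.7% lower over all genes. HHEX (60.8 ± 2.41 CPM) and the myeloid and B cell factor SPI1 (48.9 ± 0.697 CPM) were higher in undepleted K562 and had 0 counts in undepleted HEK293T. HOXA10 was lower, with 1 count in the undepleted K562 pair and 72.4 CPM in undepleted HEK293T (edgeR adjusted p = 1.26e-14). LEF1 and CEBPB did not pass, at 0.15 ± 0.49 and 0.58 ± 0.55. The level of SPI1, per kilobase, was 60.2 in undepleted K562, between those of MYB and TAL1.

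Genes known as targets of these factors were higher in K562 in most cases. Of 25 listed, 20 were tested and edgeR called 16 higher and 0 lower than in HEK293T, with a median of 6.67, beside 18.9% higher and 16.7% lower over all genes. The globins HBG2, HBG1, HBE1 and HBA1 had 4034 ± 157, 3898 ± 70.0, 1981 ± 47.6 and 1190 ± 22.7 CPM in undepleted K562 and 0 in undepleted HEK293T. These globins passed the filter on low counts through K562 and so had to differ. The list median includes their fitted values, which are no bound on the difference. HBG1 and HBG2, and HBA1 and HBA2, are near-identical copies, so their split is uncertain. TFRC, the transferrin receptor, was 1165 ± 17.2 CPM in K562 and 258 in HEK293T, and UROD, a haem synthesis enzyme, 509 ± 26.3 and 120. HEK293FT against HEK293T gave no call in any of the 4 lists.

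Within K562, some target genes changed with Ribo-Zero Plus and with NEBNext. With Ribo-Zero Plus, edgeR called 9 of 23 tested targets lower and 1, HBB, higher, where 13.4% of all genes were lower and 1.49% higher. The list median was -0.86 beside -0.43 over all genes, and whether the list differs from the 10 factors was not tested. With NEBNext, HBE1 (-0.61 ± 0.15, edgeR adjusted p = 0.00292) and HBA1 (-0.54 ± 0.17, edgeR adjusted p = 0.0483) were lower and HBG1 higher (0.42 ± 0.13, edgeR adjusted p = 0.0426), 3 of 15 tested, where 2.85% of all genes were called. FastSelect and both forms of riboPools gave 0 calls among 23 tested targets.

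Over the 26 libraries, the genes outside the group whose log2(CPM + 1) followed the mean of the 10 most closely were GAGE12D, HBG1, RHAG, HBG2 and RHOXF2, among 4582 genes averaging 50 counts or more. Pearson's r was 0.997 for each. They include the fetal globins and RHAG, a red cell membrane protein of the Rhesus complex. GAGE12D, of a multigene family with near-identical members, and RHOXF2, a homeobox gene with a near-identical copy, are uncertain as single genes. With HEK levels at or near 0 and K562 levels of 142 ± 8.94 CPM for GAGE12D up to 4034 ± 157 CPM for HBG2, these values describe a contrast between 2 kinds of library that also differ in experiment and depth. Among the 10 genes, r with the mean of the other 9 was 0.912 to 0.996, except for ZFPM1 at 0.611.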

How the data were processed

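The authors deposited whole-number footprint counts per coding sequence, 1 transcript per row, for 26 libraries in 4 tables, and RPM values for the same rows. The deposited RPM equals the count over the library total, so only counts were used, and CPM here was computed in the same way. Per the submitters' processing notes, CASAVA 1.8, STAR and the GRCh38 (hg38) build were used. Read filters, the handling of duplicates and of reads with several matches, and the annotation are not given in the sources used here. Of the deposited transcripts, 97.4% match GENCODE 29 by identifier and version, which gave lengths, positions and coding sequences. The members and lists were chosen with earlier results of these data known.

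Libraries were grouped by title. Counts were tested with edgeR 4.0.16 (TMM, filterByExpr with a minimum of 10, quasi-likelihood, Benjamini-Hochberg over all genes, threshold 0.05) in R 4.3.3, with code tested on simulated data. Alternatives were DESeq2 1.42.0, total-count scaling, no filter, a replicate block, other sets of libraries and each library left out. The SE of an edgeR log2 fold change was its absolute value over the square root of the quasi-likelihood F. Intervals are exact at 95%: Poisson for counts, and binomial for ratios of counts. Intervals and the floor of 3 counts cover counting error only, since PCR copies are not independent molecules. Named genes were the 10 members, in each list the 4 highest in undepleted K562 plus the 2 highest in undepleted HEK293T, and the 5 genes most like the members. Not every listed gene is reported by name here. No matched RNA-seq was used.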

Additional observations from a re-analysis of the deposited data

How the results depend on the processing

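Over 749 combinations of gene and alternative, 712 kept their side of the threshold, 672 of them with their direction and 40 with a change of sign but no call either way, 10 were weaker, 6 stronger and 2 reversed, and 19 gave no adjusted p. The 7 weaker values among the 233 for cell lines all came from leaving out the K562 NEBNext library of 20 to 34 nt. That fit kept 1 K562 library, and calls were lost over all genes too. With Ribo-Zero Plus, 1 gene was called, 0 to 4 when single libraries were left out (edgeR), and 0 in a fit of the libraries of both groups only. NFE2 there turned from 0.25 to -1.14 without the plain library and to -1.14 without that with oligos and formaldehyde, since the additive terms then extrapolate the missing combination. KLF1 likewise moved to -6.06 and -6.11. Without the oligo library or without the formaldehyde library KLF1 was -0.83 or -0.84 and NFE2 0.54 or 0.53. GATA1 was -0.37 in both fits and LYL1 -1.13 in both. All 4 passed the threshold, beside medians over all genes of -0.43 and -0.44. Counts of all genes called moved by over 1.5 times in K562 against HEK293T (3424, and 2124 to 3466), against HEK293FT (5044, and 3000 to 5351), in the NEBNext comparison of lines (1841, and 0 to 2634), in HEK293FT against HEK293T (406, and 219 to 418), in NEBNext (K562 106, and 16 to 75; HEK293T 143, and 56 to 154), in Ribo-Zero Plus (1430, and 0 to 3549), in Ribo-Zero Gold (3, and 1 to 3), FastSelect (2, and 0 to 3), riboPools (8, and 0 to 9) and its cold elution (22, and 0 to 27), and from 0 to 1 for RiboCop. In a fit of all 12 kit libraries FastSelect and both riboPools forms had 0 genes called (edgeR), with 125, 139 and 165 at an unadjusted p under 0.05. Leave-one-out was not possible for NEBNext in K562, which would keep no residual degrees of freedom. With a replicate block, 9 genes were called in K562 against HEK293T and 0 for each kit of HEK293T and for FastSelect and both riboPools forms, as without it. Same-numbered libraries correlated at 0.064 to 0.137 in HEK293T and -0.049 to 0.020 in K562. With 2 numbers a group and counting error in each value, this cannot decide whether they share a sample. The main fits used no pairing. Levels under the floor of 3 counts cannot be read: 64.0 CPM in the undepleted K562 library of 20 to 60 nt, 25.7 in Ribo-Zero Plus with formaldehyde and 25.0 in the shallowest HEK293T library.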
